A study of Drosophila melanogaster with 3 samples.

Results

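The 9 genes described here encode insulator and chromatin architecture proteins of Drosophila melanogaster, and they were chosen by name: BEAF-32, CTCF, Chro, Cp190, su(Hw), mod(mdg4), pita, pzg and Dref. All 9 were found among 13945 protein-coding genes of the annotation. A peak belonged to a gene when its summit lay in the gene body or within 2 kb of it. GAGA factor binding was measured by ChIP-seq in whole embryos of both sexes, 0 to 24 h old, in 3 biological replicates and with no second condition. The strain, Trl-MiMIC-GFP, carries a GFP exon inserted into an intron of Trl, the gene for GAGA factor, and the fusion protein was precipitated with an anti-GFP antibody. All replicates are of this line, and untagged flies and control libraries are not analysed here. Each sample mixes all embryonic cell types and stages, and binding in few cells cannot be told apart from weak binding in many. Peak strength is given as a rank by the authors' signal, where 1 is the strongest. The optimal list holds the 4900 peaks that passed the authors' reproducibility threshold, and the pooled list of 30000 peaks continues below it.

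Insulator proteins mark borders between chromosome domains and can keep an enhancer from acting on a promoter beyond them. In flies, su(Hw), CTCF, Pita and BEAF-32 bind their own DNA sequences and recruit Cp190 or Mod(mdg4), cofactors that share the BTB domain with GAGA factor. Chromator, the product of Chro, and Putzig, the product of pzg and also known as Z4, sit together in the interbands of polytene chromosomes. DREF binds the DNA replication-related element (DRE), a promoter sequence that contains the shorter core bound by BEAF-32. GAGA factor itself contributes to several insulators, among them boundaries of the bithorax complex.

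GAGA factor had optimal peaks at 8 of these 9 genes, and su(Hw) was the exception. The 8 genes held 16 optimal peaks in all. Over all protein-coding genes, 5254 of 13945 (37.7%) had an optimal peak by the same rule, and 46.6% of the 6222 genes in the members' length range of 2162 to 26556 bp did. With summits in the gene body alone, 5 of the 9 genes (BEAF-32, CTCF, Chro, mod(mdg4) and pita) had an optimal peak, against 12.9% of all genes, and 6 of the 16 peaks remained. The median length was 4212 bp for the 9 genes and 2166 bp for all genes. At 7 of the 9 genes, a start site had an optimal summit no more than 500 bp away, against 22.9% of all genes. Within 100 bp it was 5 of the 9 genes, against 11.3%. For 6 of the 9 genes, an optimal peak had the gene's own start site as the nearest protein-coding one, against 21.8% of all genes. In the 4900 strongest peaks of every replicate, 7 of the 9 genes had a peak by the rule, against 29.7% of all genes. No test was made of these counts, because the genes were chosen with earlier results of the same data known.

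**Figure D1:**
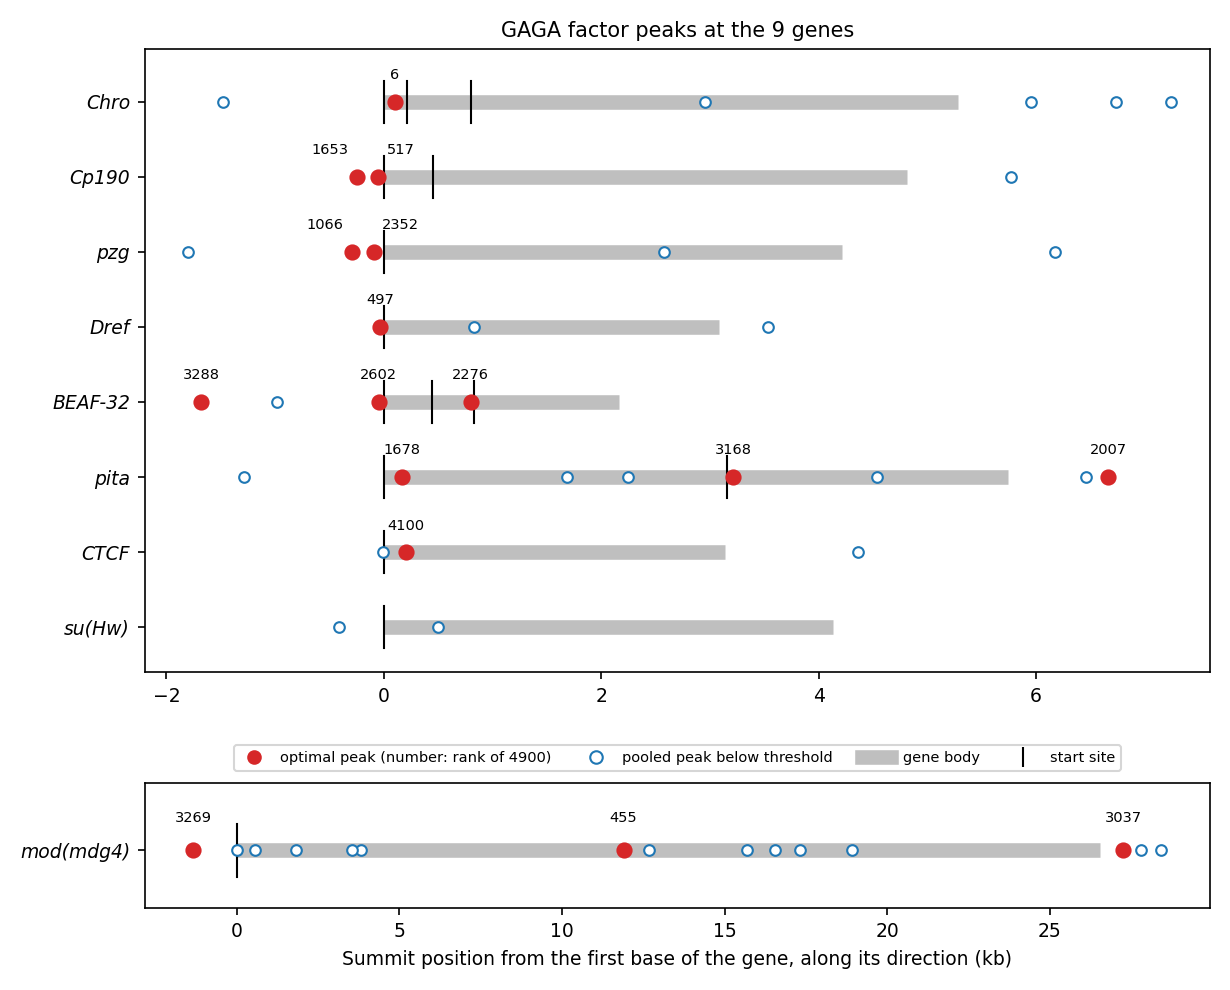
Summits at the 9 genes, drawn from the first base of each gene along its direction in kb, with mod(mdg4) on its own scale. Filled points are optimal peaks with their rank of 4900, open points are pooled peaks below the threshold, grey bars are gene bodies and black ticks are start sites. The ticks are the start sites of the 9 genes only. Of the 16 optimal summits, 8 have a start site of the member as the nearest protein-coding one, and su(Hw) has open points only.

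The sequences between back-to-back start sites are printed for 5 intervals that optimal peaks of these genes cover in whole or in part. Optimal summits lie inside those of Cp190, Dref, pre-mod(mdg4)-E and, at rank 2352, pzg, while the summits at rank 6 of Chro and at rank 1066 of pzg lie outside the printed bases. Each of the following runs 5' to 3' in the direction of the named gene and ends at the base before its first start site (dm6, RefSeq genome sequence). All but the last line begin after the start site of the divergent neighbour gene named with it, and the last line lies between start sites of mod(mdg4) precursor genes. Capitals mark the BEAF-32 core, CGATA on either strand. The search also covered the GAGA factor core GAGAG and its longer form GAGAGAG, which contains it. It covered the DRE with the letters TATCGATA, and the Motif 1 core with the letters GGTCACAC, on both strands. None of these others is complete in the 5 stretches.
Chro to Ssl1, chr3L:22878985-22879088, minus strand: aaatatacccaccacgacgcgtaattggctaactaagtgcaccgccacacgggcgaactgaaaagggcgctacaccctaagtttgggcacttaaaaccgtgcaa
Cp190 to CG4338, chr3R:15275242-15275521, minus strand: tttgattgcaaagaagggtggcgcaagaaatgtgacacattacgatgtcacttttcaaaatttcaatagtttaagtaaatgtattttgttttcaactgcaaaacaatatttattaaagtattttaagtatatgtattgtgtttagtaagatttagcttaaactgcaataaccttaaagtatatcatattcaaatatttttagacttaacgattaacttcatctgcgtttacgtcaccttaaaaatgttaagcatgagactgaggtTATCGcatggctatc
pzg to CG12974, chr3L:21285963-21286098, plus strand: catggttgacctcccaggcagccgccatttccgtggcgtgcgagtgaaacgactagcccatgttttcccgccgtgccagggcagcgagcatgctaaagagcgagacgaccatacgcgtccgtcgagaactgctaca
Dref to RpL13, chr2L:9967230-9967312, minus strand: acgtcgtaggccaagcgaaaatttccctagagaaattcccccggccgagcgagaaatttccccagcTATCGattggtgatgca
pre-mod(mdg4)-E to pre-mod(mdg4)-X, chr3R:21365489-21365608, minus strand: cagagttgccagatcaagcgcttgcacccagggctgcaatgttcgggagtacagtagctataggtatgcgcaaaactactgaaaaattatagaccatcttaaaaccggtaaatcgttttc

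Chro had the strongest peak of the 9 genes. It encodes Chromator, a chromodomain protein of interbands and of the mitotic spindle matrix. The gene (FBgn0044324) lies on the minus strand of 3L from 22873702 to 22878984, with 3 start sites. Its optimal peak covered 22878695 to 22879096 and stood at rank 6 of 4900, and at ranks 7, 6 and 9 in replicates 1, 2 and 3. The 3 replicate summits lay 2, 15 and 5 bp from the pooled one, so position and rank differed little between replicates. Over all protein-coding genes, 11 of 13945 (0.0789%), Chro included, had a best peak at rank 6 or stronger. The summit was in the 5' UTR, 104 bp downstream of the first start site, and Ssl1, a gene for a TFIIH subunit, starts 105 bp upstream of Chro in the other direction. A BEAF-32 core stood 14 bp from the summit, shown here in a site of 29 bases with the core in capitals.
Chro, chr3L:22878880-22878908, minus strand: ttagtttaaagcTATCGacaggcaataca
The other 5 pooled peaks by the rule were below the threshold, the strongest of them at rank 5410 and 13 bp from the start site of CG11109.

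pzg encodes Putzig, a zinc finger protein that is a partner of Chromator and is also found with DREF. The gene (FBgn0259785) lies on the plus strand of 3L from 21286099 to 21290310. The stronger of its 2 optimal peaks, at rank 1066, had its summit 296 bp before pzg, in an intron of the divergent gene CG12974. It ranked 1043, 1243 and 1018 in replicates 1, 2 and 3, with summits 3, 0 and 32 bp away. The second peak, at rank 2352, had its summit 91 bp upstream of pzg and 46 bp upstream of CG12974, so the nearest start site to both is the one of CG12974. The summit of the second peak lay over 100 bp from the one of the first, and the replicate peaks within 100 bp of it ranked 5649, 3387 and 1735. The first of these is below the 4900 strongest of its replicate, and the 3 values are more spread than those of the first peak.

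Dref encodes the DRE-binding factor, which acts at promoters of replication and housekeeping genes. The gene (FBgn0015664) lies on the minus strand of 2L from 9964147 to 9967229. Its optimal peak covered 9967207 to 9967382, a narrow 176 bp, and stood at rank 497. It ranked 439, 493 and 632 in replicates 1, 2 and 3, and the summits lay 6, 3 and 52 bp from the pooled one. The pooled summit was 37 bp upstream of Dref, within the 83 bases between Dref and the ribosomal protein gene RpL13 printed with the other stretches. This interval has no complete DRE and 1 BEAF-32 core, whose centre was 22 bp from the summit. The other 2 pooled peaks, in a coding exon of Dref and at CG5850, stood at ranks 15903 and 20014.

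Cp190 encodes a BTB and zinc finger cofactor that most fly insulator proteins recruit. The gene (FBgn0000283) lies on the minus strand of 3R from 15270432 to 15275241, with 2 start sites. The stronger optimal peak covered 15275204 to 15275391 and stood at rank 517, with its summit 51 bp upstream of the first start site. It ranked 1001, 525 and 324 in replicates 1, 2 and 3, a wider span than for Dref. The other optimal peak, at rank 1653, had its summit 250 bp upstream of Cp190 and 31 bp upstream of the divergent gene CG4338. Replicate peaks within 100 bp of that summit ranked 2990, 7635 and 1011, so it was outside the 4900 strongest peaks of replicate 2. Both pooled peaks overlap the same replicate peak when 1 shared base is enough, which gives both the same replicate ranks under that rule. Cp190 is the only member with a DRE within 100 bp of an optimal summit, 51 bp away and across the first start site. That is 1 of the 16 optimal summits, against 4.55% of all 4900 and 8.16% of the 2646 within 500 bp of a start site. Within 100 bp the member count is therefore near the share over all optimal summits. Within 250 bp a DRE was at 5 of the 16, against 7.41% of all optimal summits.

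mod(mdg4) encodes a family of BTB proteins that share their first exons and differ in their last, which are joined by trans-splicing from separate transcripts. One of these proteins is the partner of su(Hw) at the gypsy insulator. The gene (FBgn0002781) lies on the minus strand of 3R from 21350846 to 21377401, and the annotation places 23 precursor genes inside it, 14 on the same strand and 9 on the other. Its strongest peak covered 21365420 to 21365608 and stood at rank 455, inside an intron of mod(mdg4) and between precursor genes that start in opposite directions. The summit was 20 bp upstream of pre-mod(mdg4)-E and 101 bp from the shared start site of pre-mod(mdg4)-X and 6 other precursors. It ranked 504, 610 and 341 in replicates 1, 2 and 3, with summits 35, 39 and 17 bp away, so the 3 replicates gave close values. Because they share start sites, 10 of the 23 precursor genes had this 1 optimal summit within 500 bp.

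The remaining 13 precursor genes had a pooled summit within 500 bp that was below the threshold. The peak at rank 6640 had its summit 102 bp upstream of pre-mod(mdg4)-T and ranked 10195, 12301 and 5572 in the replicates. The peak at rank 9674 had its summit 13 bp upstream of pre-mod(mdg4)-AA and ranked 28956, 5833 and 5366, so replicate 1 differed widely from the others. The replicate 3 peak had its summit 262 bp away, and the one within 100 bp ranked 7991. At the start site of mod(mdg4) itself the pooled peak was just outside the optimal list, at rank 5452 and 2 bp from the start site. Its replicate ranks were 3098, 15329 and 6935, and in replicate 1 alone the start site was within the top 4900 peaks. The other 2 optimal peaks of the mod(mdg4) window lay outside the gene. The one at rank 3037 was 525 bp upstream of aus (ranks 2102, 6790 and 3051 in the replicates). The one at rank 3269 was 226 bp upstream of tin, the homeobox gene tinman of heart development (ranks 4636, 1961 and 4035).

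BEAF-32 encodes a BED finger protein that binds clusters of the CGATA core and is found beside many housekeeping promoters. The gene (FBgn0015602) lies on the plus strand of 2R from 14770469 to 14772630, with 3 start sites. An optimal peak at rank 2276 had its summit 33 bp upstream of the third start site, in a 5' UTR, and ranked 2258, 2212 and 3880 in replicates 1, 2 and 3. Another at rank 2602 had its summit 46 bp upstream of the first start site, in an exon of the antisense RNA asRNA:CR42254, and ranked 2125, 1669 and 3716. In both, replicate 3 gave the weakest rank of the 3. The third optimal peak, at rank 3288, lay in an intron of Spred, 635 bp inside that neighbour, and replicate 3 gave its strongest rank (5036, 5665 and 1933). In replicate 1 no summit lay within 100 bp of it. Between the genes, a pooled peak at rank 4960 was just below the threshold, 66 bp upstream of Spred. Replicate 2 placed it far lower than the others did, at 25932 against 4544 and 4136 in replicates 1 and 3.

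pita encodes a zinc finger protein that binds the Fab-7 boundary and recruits Cp190. The gene (FBgn0034878) lies on the minus strand of 2R from 23548967 to 23554712, with 2 start sites, and both had an optimal peak. The peak at rank 1678 had its summit 168 bp inside the gene, and the replicates placed it at 1818, 2444 and 1427. The peak at rank 3168 had its summit 53 bp downstream of the second, in a 5' UTR of pita that overlaps one of Dcp-1, a caspase gene. The overlapping replicate peaks ranked 3403, 3158 and 3441. In replicate 2 that peak's summit was 119 bp away, and the replicate 2 peak within 100 bp ranked 14473. A further optimal peak at rank 2007 lay beyond the 3' end of pita, 61 bp upstream of wmd, and ranked 2742, 1841 and 1450.

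CTCF and su(Hw), which encode zinc finger proteins that bind insulators directly, had the weakest peaks of the 9. CTCF (FBgn0035769) lies on the minus strand of 3L from 7353578 to 7356713. Its single optimal peak stood at rank 4100, with the summit 202 bp inside the gene, in an intron of CTCF that overlaps an exon of asRNA:CR45822. It ranked 5486, 3730 and 2473 in replicates 1, 2 and 3, so replicate 1 did not have it among its 4900 strongest peaks. A second pooled peak at rank 12455 overlapped it, with the summit 11 bp before the start site. su(Hw) (FBgn0003567) lies on the minus strand of 3R from 14304455 to 14308589. Its stronger pooled peak stood at rank 11328, 499 bp inside the gene in a 5' UTR, overlapped no peak of replicate 1 and ranked 20348 and 6107 in replicates 2 and 3. The other, at rank 16738, was 87 bp upstream of Polr2I, which encodes an RNA polymerase II subunit and starts 500 bp upstream of su(Hw) in the other direction. It ranked 12267 and 16051 in replicates 1 and 3 and overlapped no peak of replicate 2.

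**Figure D2:**
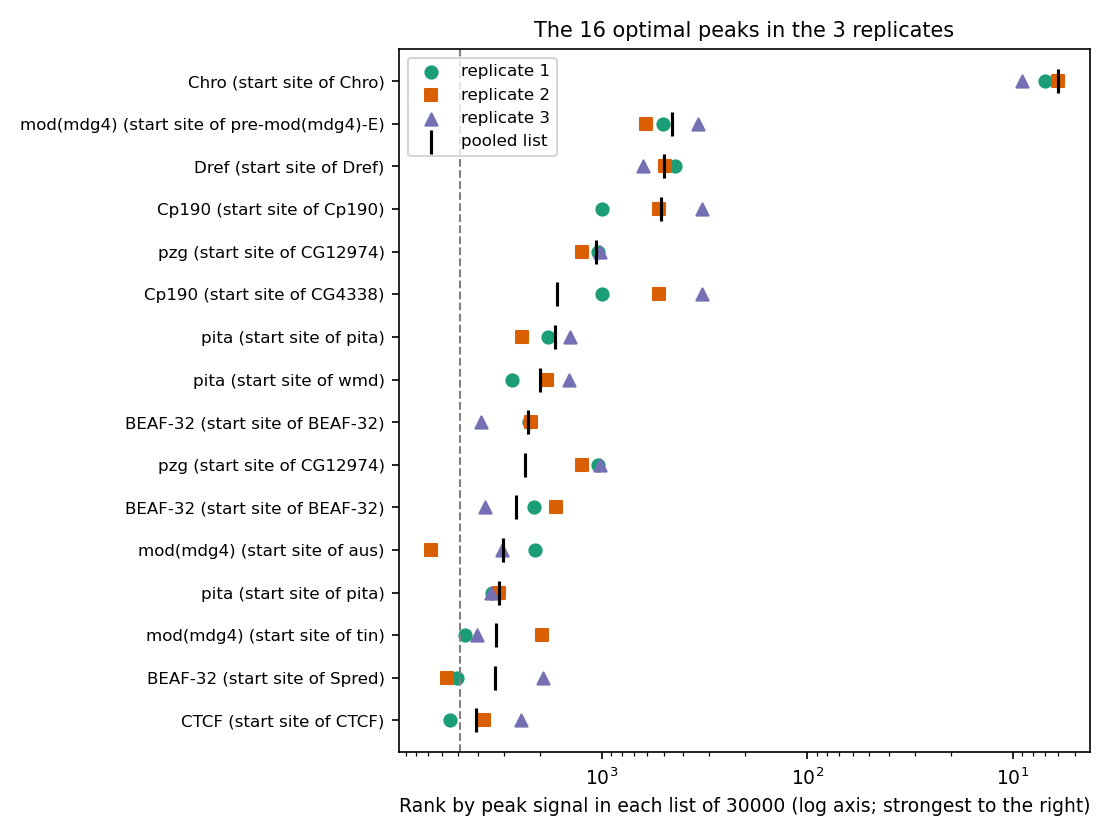
Ranks of the 16 optimal peaks in the replicate lists (coloured symbols) and in the pooled list (black bars), on a log axis with the strongest to the right. Each row names the member and the nearest protein-coding start site, and the dashed line marks rank 4900. The Chro peak lies between 6 and 9 in every list, and the CTCF peak spans 2473 to 5486. Replicate symbols show the strongest peak sharing at least 1 bp. The weaker Cp190 and pzg peaks therefore repeat the replicate ranks of the stronger peak beside them. Replicate peaks within 100 bp of the weaker summits ranked 2990, 7635 and 1011 for Cp190, and 5649, 3387 and 1735 for pzg.

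By the strongest peak of each gene, the order was Chro, mod(mdg4), Dref, Cp190, pzg, pita, BEAF-32, CTCF and su(Hw). In the replicates, the ranges of mod(mdg4) (341 to 610), Dref (439 to 632) and Cp190 (324 to 1001) overlapped, so these 3 neighbours in the order did not differ beyond their spread. The pzg ranks (1018 to 1243) lay just below them. The best ranks of any peak within the pita window (1427 to 1841) and the BEAF-32 window (1669 to 2125) overlapped, and those of CTCF lay below both. In these 2 windows the best rank came from different peaks in different replicates. The strongest pooled peak of BEAF-32 itself ranked 2258, 2212 and 3880 in replicates 1, 2 and 3, and that of pita 1818, 2444 and 1427. The best su(Hw) ranks were 11143, 20348 and 6107 in replicates 1, 2 and 3, below those of CTCF in every replicate. The replicate 1 value came from a peak that overlapped neither pooled su(Hw) peak. The pooled list was made from the same 3 replicates, so its ranks are no independent check. The median best pooled rank of the 9 genes was 1066, against 8376 over all protein-coding genes with genes that have no peak placed after the last rank. These medians are not matched for gene length, whose median was 4212 bp for the 9 genes and 2166 bp for all genes.

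**Figure D3:**
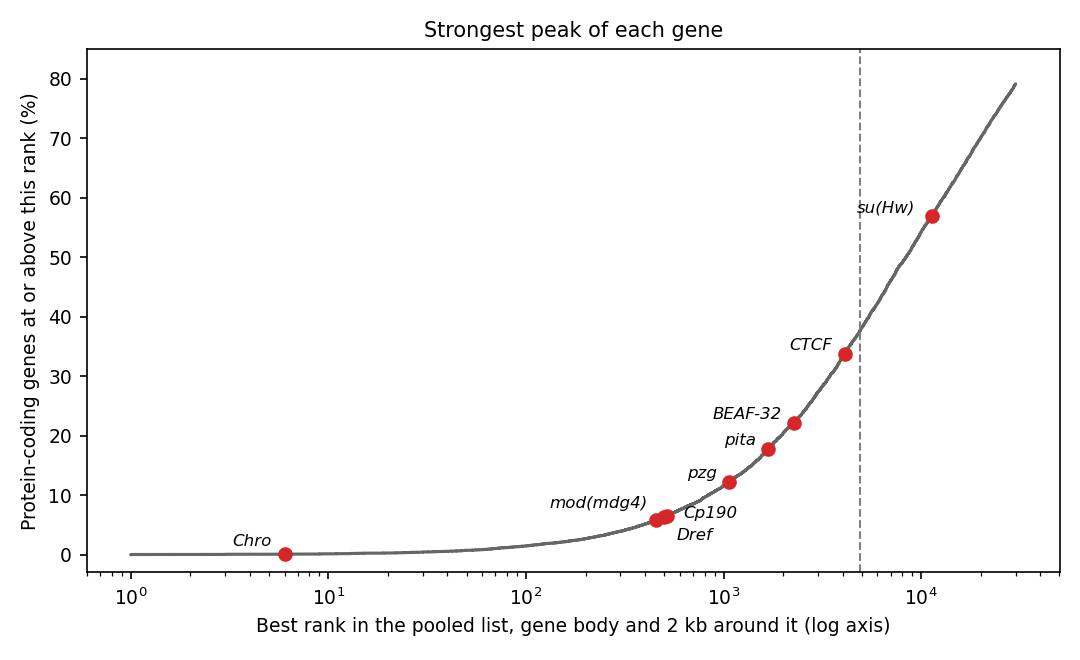
Share of all 13945 protein-coding genes (y axis, %) whose strongest pooled peak, in the gene body or within 2 kb, is at or above a given rank (x axis, log). Red points are the 9 genes and the dashed line marks rank 4900. Chro is near the left end at 0.0789%, mod(mdg4), Dref and Cp190 lie between 5.87% and 6.51%, and su(Hw) is at 57.0%.

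DREs were found at start sites of 5 of the 9 genes, a count that was not tested because the genes were chosen with earlier results known. A DRE lay between 250 bp upstream and 50 bp downstream of a start site of Cp190, mod(mdg4), BEAF-32, pita and CTCF. It was present at 1418 of 13945 protein-coding genes (10.2%), and at 16.8% of the 3193 genes with an optimal promoter peak. Counted by start site, 6 of 15 had a DRE, against 7.98% of 19253 start sites. Chro, Dref, pzg and su(Hw) had none, so both the gene with the strongest peak and the gene with the weakest were among those without. The shorter core CGATA, which every DRE contains on both strands, was at start sites of 8 of the 9 genes, against 53.1% of all genes and 65.9% of those with an optimal promoter peak, and was missing at su(Hw). The start site of su(Hw) was the only one with a Motif 1 core, a sequence of housekeeping promoters that was present at 8.71% of all genes.

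The DREs outside the arm of BEAF-32 and pita are shown in sites of 30 bases along each gene, with the DRE, or the core where it stands alone, in capitals. That of CTCF began 21 bp upstream of the start site, those of Cp190 4 bp upstream of the first and 21 bp upstream of the second, and that of mod(mdg4) 54 bp upstream.
CTCF, chr3L:7356716-7356745, minus strand: accaatcgaacTATCGATAgctggcggtac
Cp190 first start, chr3R:15275227-15275256, minus strand: TATCGcatggcTATCGATAgctgccgagcg
Cp190 second start, chr3R:15274793-15274822, minus strand: acacaggcgtaTATCGATAtttgcgagttg
mod(mdg4), chr3R:21377437-21377466, minus strand: atattttaagcTATCGATAtattgtcactt
At CTCF and mod(mdg4) the pooled summit nearest to the DRE was the one below the threshold at the start site, at ranks 12455 and 5452.

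GAGA factor itself binds GA repeats. GAGAG stood within 100 bp of 3 of the 16 optimal summits, against 32.6% of all 4900 optimal summits. The 3 were the peaks at both start sites of pita and the BEAF-32 peak inside Spred, which held 4 copies. Within 250 bp the count was 5 of 16, against 56.2% of all optimal summits. In both windows the member count is small. Within 100 bp, GAGAG was at 33.4% of the 2646 optimal summits within 500 bp of a start site. Windows of the same size centred 1 kb from all optimal summits held it in 23.4% of cases. The longer GAGAGAG stood within 100 bp of 1 of the 16, against 11.2% of all optimal summits. At start sites, GAGAG was present at 1 of the 9 genes, pita, against 36.4% of all protein-coding genes and 45.8% of those with an optimal promoter peak. CGATA stood within 100 bp of 8 of the 16 optimal summits, against 30.9% of all optimal summits and 39.5% of the 2646 within 500 bp of a start site. The Motif 1 core was at none of the 16, against 3.16% of all optimal summits. A match is a description of the letters in a window and shows no bound factor, and several windows overlap.

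**Figure D4:**
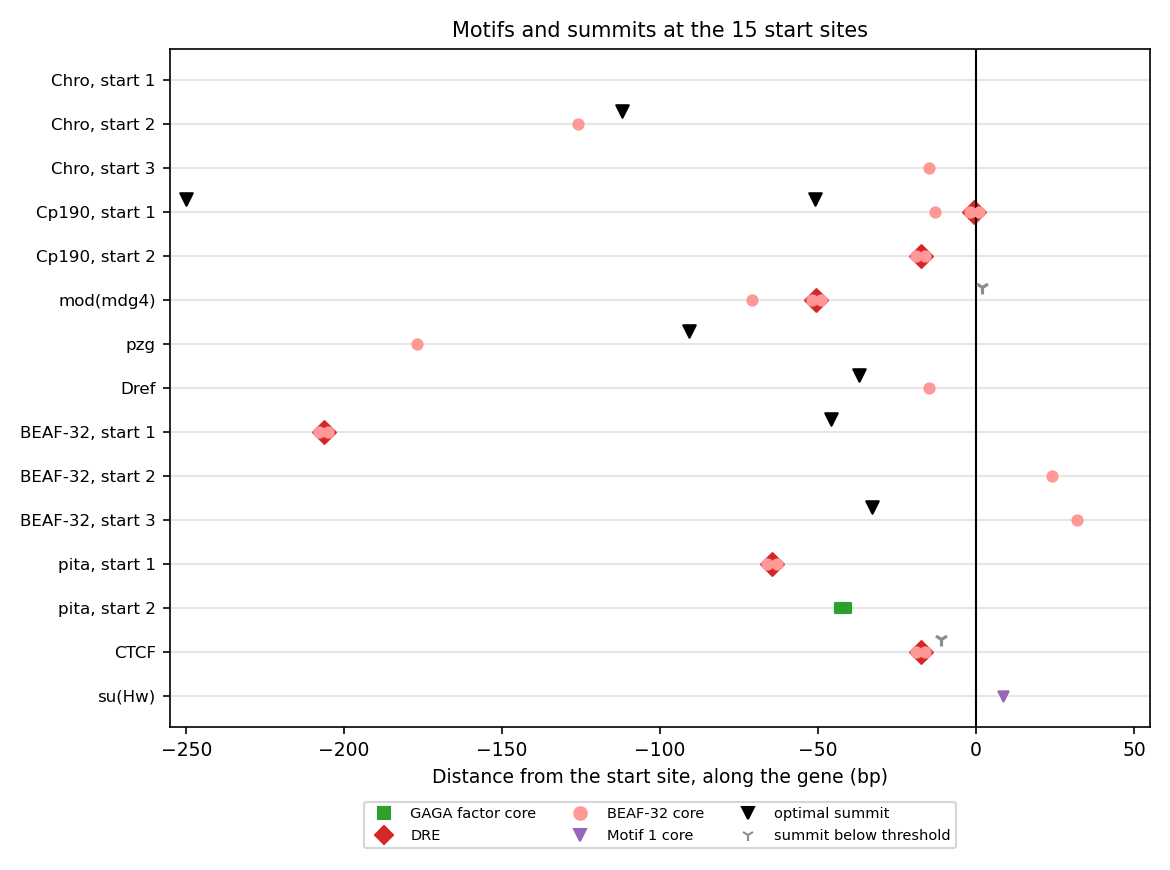
Motif matches at the 15 start sites of the 9 genes, by distance from the start site in bp along the gene, from 250 bp upstream to 50 bp downstream. Symbols on the lines are motifs and triangles above them are summits, black for optimal and grey for below the threshold. DREs are at 6 start sites of 5 genes, and the GAGA factor core is at 1, the second of pita.

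Part of the peaks lay nearest to other genes' promoters. Of the 16 optimal peaks, 8 had a start site of the member as the nearest protein-coding one, and the others were nearest to CG12974, CG4338, wmd, Spred, aus, tin or pre-mod(mdg4)-E. A protein-coding gene started within 1 kb upstream on the other strand of 5 of the 9 genes (Chro, Cp190, pzg, Dref and su(Hw)), against 35.2% of all protein-coding genes. At such intervals, binding to one promoter or the other cannot be told apart. Of the 16 summits, 6 were intergenic, against 39.0% of all optimal summits, and 5 were in a 5' UTR, against 13.0%. A further 3 were in introns, against 42.8%, and 2 in exons of antisense RNAs, against 3.02% in non-coding exons. Of the 33 pooled peaks below the threshold, 19 had the summit in a coding exon, and 13 overlapped a peak in all 3 replicate lists. The shares over all pooled peaks below the threshold are not given here, so neither count is read as a trait of these genes. All 16 optimal peaks overlapped a peak in all 3 lists, but the optimal list was selected for reproducibility.

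A list of 31 other genes for insulator, cohesin and condensin proteins was read in the same way. An optimal promoter peak was present at 12 of the 31, against the 22.9% of all protein-coding genes given before, and 5 of the 31 had one within 100 bp, against 11.3%. A DRE was at start sites of 10 of the 31, against 10.2% of all protein-coding genes and 16.8% of those with an optimal promoter peak. Condensin genes had such a peak at 4 of 7, and cohesin genes and their regulators at 3 of 6 (SMC1, SA1 and wapl). Among 10 genes for other DNA-binding insulator proteins and the ELBA complex the count was 1, M1BP, with a peak closest to CG8202. The strongest promoter peaks were those of SMC2 at rank 396 (520, 309 and 384 in the replicates) and Cap-D2 at rank 931, whose peak lay nearest to Bub3. They were followed by Cap-H2 at rank 1413, nearest to MED7, row at 1963 and shep at 1990. Cap-D3, Cap-G and Clamp are examples without one. JIL-1, which encodes a histone H3 kinase that binds Chromator and was named after its values were seen, had no promoter peak but 4 optimal peaks in its window, the strongest at rank 169. The start site nearest to that peak is not given here. In such windows, the gene body and 2 kb around it, 16 of the 31 genes had an optimal peak, against 37.7% of all protein-coding genes.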

How the data were processed

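ChIP-seq peaks of GFP-tagged GAGA factor were read from 3 biological replicates of 1 group, numbered as in the labels, which give sonication to 200 to 800 bp. The authors deposited the dm6 lists used here: 1 of 30000 peaks per replicate, and a pooled and an optimal list that derive from all 3 replicates, per the deposited text notes. The peak signal, the −log10 q-value and the summit offset are the authors' deposited values; the signal's scale, caller and aligner are not given in the sources used. Signal served only for ranks, and the q-value score was not used. Depth is unknown, and the control and the dm3 lists were not used here.

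Gene models were those of Ensembl release 115 without transposable elements, and sequence from the RefSeq genome, whose 6 arms hold all peaks. Replicate ranks are those of the strongest peak sharing at least 1 bp. Motifs were sought within 100 bp of summits. The nearest start site was sought among protein-coding genes, precursors of mod(mdg4) included. The code (Python 3.11.15, pandas 2.3.3) was tested on simulated data. The members, the partner list and its classes were chosen with earlier results of these data known, and all optimal peaks of members were named, with the strongest peaks of su(Hw) and, of the partner genes, the 5 strongest and 3 without a promoter peak. Other peaks below the threshold, the cohesin genes, M1BP and JIL-1 were named after their values were seen. Replicates and peaks were described with no test. Alternatives were other windows, stronger peaks and each replicate left out.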

Additional observations from a re-analysis of the deposited data

How the results depend on the processing

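With gene bodies only, 5 of the 9 genes and 12.9% of all genes had an optimal peak, 6 optimal peaks were counted and 17 peaks below the threshold, as summits outside the genes then dropped out. The strongest 2450 of the 4900 optimal peaks left 10 of the 16 at members, and counting only peaks nearest to a member's start site left 8. Within 50 bp of the summit, GAGAGAG and the DRE were at 0 of the 16 optimal summits, against 7.08% and 2.49% of all optimal summits. Within 250 bp GAGAG was at 5, the DRE at 5 and CGATA at 13, against 56.2%, 7.41% and 54.0% of all optimal summits. With a promoter window of 100 bp, which calls 11.3% of all genes, 5 of the 31 partner genes had an optimal peak, and 5 of the 9 members did, without Chro and CTCF. Members in the top 4900 of every replicate numbered 7 to 8 with 1 replicate left out, and without replicate 1, CTCF was added. The share over all genes was 29.7% with all 3 replicates and is not given here with 1 left out. The top 4900 peaks of each replicate alone gave 7 members with a promoter peak, with mod(mdg4) in place of CTCF in replicate 1. The shares over all protein-coding genes were 22.7%, 22.6% and 22.5% in replicates 1, 2 and 3. When summits had to lie within 100 bp, the mean replicate percentile moved by more than its SD for 4 of the 16 optimal peaks, and 15 of the 16 had such a summit in all 3 replicates, a condition added after the data were seen. The exception was the BEAF-32 peak in Spred, in replicate 1. Depth is unknown, so a gene without a peak is not shown to be unbound.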
